A study of Mus musculus with 12 samples.

Results

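Genes of glutathione metabolism were followed through 24 h and 48 h of CD4+ T cell activation with and without Keap1, 9 in all: Gclc, Gclm and Gss (synthesis), Slc7a11 (cystine import), Gsr and Glrx (reduction), Gpx1 and Gpx4 (peroxidases) and Ggct (turnover). The members are the rows of the count matrix that carry those symbols, 9 of 32698 named genes, and all 9 passed the low-count filter that left 13196 genes. The samples were 12 RNA-seq libraries of mouse naive CD4+ T cells that antibodies to CD3 and CD28 had activated in vitro. There were 3 libraries in each of 4 groups: wild type (WT) at 24 h, WT at 48 h, Keap1 knockout (KKO) at 24 h and KKO at 48 h. All groups received the same antibodies, and no unstimulated sample was analysed here. The deleted exons, the promoter of any Cre and the age of the mice are not given in the sources used here, nor is whether the replicates stand for separate mice or separate cultures. The p-values measure the spread between these libraries, and how many mice that spread covers is not known.

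Glutathione is a tripeptide of glutamate, cysteine and glycine and the main small thiol of the cell. Glutamate-cysteine ligase, made of a catalytic subunit (Gclc) and a modifier subunit (Gclm), joins the amino acids in the rate-limiting step, and glutathione synthetase (Gss) adds glycine; cysteine can enter as cystine through the exchanger Slc7a11. Keap1 is the adaptor that targets the transcription factor NRF2 for degradation, and several glutathione genes are known NRF2 targets through the antioxidant response element. T cells are known to need glutathione for growth after activation, when reactive oxygen rises.

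Values are CPM, counts per M (mega) counts of the TMM-scaled library, given as mean ± SD over 3 libraries. Log2 fold changes, with their standard errors (SE) and 95% intervals, came from edgeR's quasi-likelihood test, adjusted over all 13196 genes, and a gene was called at an adjusted p under 0.05. Library totals ran from 17.8 to 32.6 M expected counts. The targeted gene, Keap1, fell from 107 ± 1.48 CPM in WT to 16.6 ± 0.906 in KKO at 24 h and from 126 ± 5.16 to 21.2 ± 1.21 at 48 h. By Xist, which female cells express, and Y-linked transcripts, the libraries of each group came from mice of both sexes, in different balance between genotypes. In WT, replicates 1 and 2 held Xist and replicate 3 Y-linked transcripts at both times. In KKO, 1 library of each time held Xist (replicate 2), 1 held Y-linked transcripts (replicate 3 at 24 h, replicate 1 at 48 h) and 1 held both (replicate 1 at 24 h, with Xist at 76.2 and Y-linked transcripts at 125 CPM, and replicate 3 at 48 h, with 105 and 149 CPM). Apart from these 2 mixed libraries, Xist was at 288 to 771 CPM where Y-linked transcripts summed to at most 2.83 CPM (KKO replicate 2 at 48 h; at most 0.486 CPM in the others), and Y-linked transcripts were at 142 to 181 CPM where Xist was at most 0.285 CPM. The part of sex in the genotype results was not tested; results that change without the 2 mixed libraries are given both ways. KKO replicate 2 at 48 h also stood apart: without it, 39.6% of all tested genes were called for genotype at 48 h, against 24.3% with it. The 6 markers of CD4+ T cells in the file summed to 1496 to 1745 CPM in every library, and 0 of 6 were called at 24 h or 48 h. The 9 B cell markers in the file summed to 10.6 to 15.3 CPM in WT and 22.9 to 32.9 CPM in KKO at 24 h, and to 15.1 to 18.9 and 36.1 to 43.8 CPM at 48 h. Of the 8 tested, 4 were called higher in KKO at 24 h and 7 at 48 h, against 1.89% and 12.4% of all tested genes called higher. The part of B cells in the results that follow was not tested. Markers of macrophages, dendritic cells, CD8 T cells and natural killer cells summed to at most 13.4 CPM in a library, with Fcgr1 and Clec9a at 0 throughout, and granulocyte markers to at most 0.123 CPM. Both CD8 T cell markers, the 1 macrophage marker tested and 1 of the 2 dendritic cell markers tested were called higher in KKO at 48 h. The part of these cells was likewise not tested. In bulk RNA, fewer cells of a type and less RNA per cell cannot be told apart.

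Promoter sequence was available for 7 of the 9 genes, as 11 windows of 300 bases that run from 250 bases before to 50 after a transcript start (RefSeq, GRCm38.p6). Gclc and Gsr had no entry. The windows were searched on both strands for the core of the antioxidant response element (TGACNNNGC), which NRF2 with a small MAF partner binds, the core of the amino acid response element (TGATGCAA), and the AP-1 motif (TGANTCA). Of 32817 mouse windows, 12.4% held the antioxidant response element core, 0.896% the amino acid response element core and 7.81% the AP-1 motif; the first and last of these overlapped in 0.454%. The stretches shown are those upstream of a start that held a match, read 5′ to 3′ on the gene's strand with the match in capitals. For Gclm (chr3:122245398-122245456, plus strand) and Ggct (chr6:54993008-54993066, minus strand) it is the antioxidant response element core, in reverse complement. For Slc7a11 (chr3:50443628-50443704, minus strand) it is a pair of amino acid response element cores, the second in reverse complement, and for Glrx (chr13:75839762-75839818, plus strand) it is the AP-1 motif.
Gclm: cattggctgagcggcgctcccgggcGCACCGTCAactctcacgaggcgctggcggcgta
Ggct: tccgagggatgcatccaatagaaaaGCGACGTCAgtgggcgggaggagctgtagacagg
Slc7a11: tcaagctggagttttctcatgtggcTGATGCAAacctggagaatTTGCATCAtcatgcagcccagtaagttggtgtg
Glrx: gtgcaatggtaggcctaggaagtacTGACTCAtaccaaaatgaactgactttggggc

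Counted from the transcript start, the Gclm match begins at position -134 and the Ggct match at -174, with another Ggct match at 6. The Slc7a11 cores begin at -66 and -47, and the Glrx motif at -98. The Slc7a11 window lies inside the span of a longer RefSeq model of that gene. The windows of Gss, Gpx1 and Gpx4 did not hold any of these letters. A match describes the sequence only, and whether it is bound or causes a change was not tested.

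Gclc, the catalytic subunit of glutamate-cysteine ligase (chromosome 9, 77754535 to 77794489), rose without Keap1 at both times. It was at 46.5, 46.7 and 47.6 CPM in WT and 77.2, 81.3 and 77.3 CPM in KKO at 24 h. At 48 h it was at 38.2, 34.4 and 35.2 CPM in WT and 46.7, 53.4 and 47.4 CPM in KKO. The groups did not overlap at either time, and at 48 h KKO replicates 1 and 3 lay within the WT range of 24 h. The KKO level was 1.67-fold that of WT at 24 h (log2 fold change 0.74 ± 0.06 SE, 95% interval 0.62 to 0.87, adjusted p = 4.33e-06) and 1.37-fold at 48 h (0.45 ± 0.06, interval 0.32 to 0.59, adjusted p = 0.000213). Between 24 h and 48 h Gclc fell by 0.39 on the log2 scale in WT (adjusted p = 6.94e-05) and by 0.68 in KKO (adjusted p = 1.79e-07).

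Gclm, the modifier subunit that raises the ligase's affinity for glutamate (chromosome 3, 122245487 to 122267215), did not pass the test for genotype at either time. It was at 33.6, 39.2 and 37.9 CPM in WT and 45.1, 42.3 and 46.3 CPM in KKO at 24 h. The 48 h values were 28.7, 28.8 and 29.7 CPM in WT and 24.8, 31.9 and 26.3 CPM in KKO. All KKO libraries lay above all WT libraries at 24 h, whereas the groups overlapped at 48 h, with KKO replicate 2 above and the other two KKO libraries below every WT library. The log2 fold change was 0.27 ± 0.09 SE at 24 h (95% interval 0.09 to 0.45, adjusted p = 0.147) and -0.07 at 48 h (interval -0.27 to 0.12, adjusted p = 0.582). With only the 6 libraries of 24 h in the fit, Gclm was called higher (adjusted p = 0.0260), and without KKO replicate 2 at 48 h it was called higher at 24 h (adjusted p = 0.0179) and lower at 48 h (log2 fold change -0.20, adjusted p = 0.0400). Gclm, whose promoter stretch holds the antioxidant response element core, fell with time by 0.34 on the log2 scale in WT (adjusted p = 0.00329) and by 0.69 in KKO (adjusted p = 6.33e-06).

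The ratio of Gclc to Gclm counts within a library needs no scaling between libraries. It was 1.38, 1.19 and 1.26 in WT and 1.71, 1.92 and 1.67 in KKO at 24 h. The 48 h ratios were 1.33, 1.19 and 1.19 in WT and 1.88, 1.67 and 1.80 in KKO. Every KKO library was above every WT library, at a mean of 1.77 ± 0.136 against 1.28 ± 0.0982 at 24 h and 1.79 ± 0.107 against 1.24 ± 0.0806 at 48 h. The ratio was chosen with the values known, and an exact permutation test of 3 against 3 cannot give a p below 0.1, so no p is given.

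**Figure D1:**
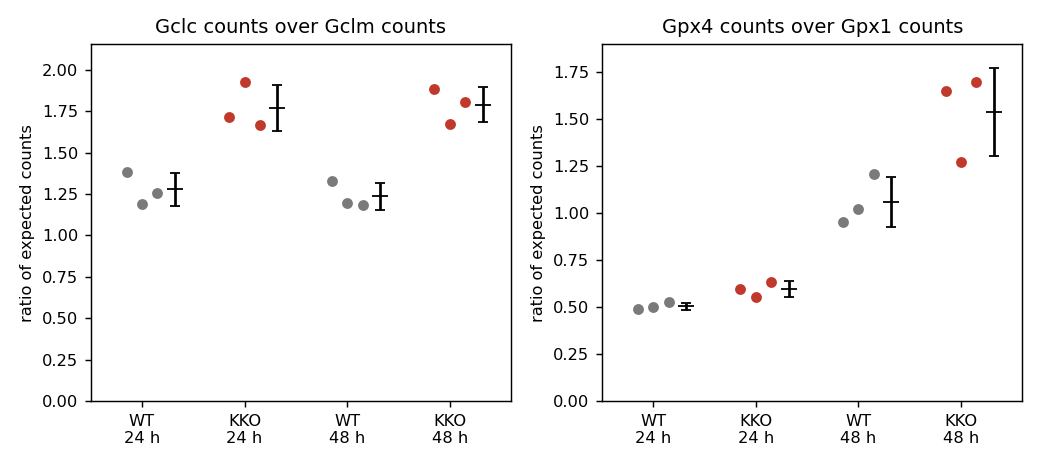
Ratio of counts of Gclc to Gclm (left) and of Gpx4 to Gpx1 (right) in each library, for the 4 groups, with points for libraries and bars for the mean ± SD (n = 3). The KKO libraries lie at 1.67 or above for Gclc over Gclm and the WT libraries at 1.38 or below, at both times.

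Gss, which completes the tripeptide (chromosome 2, 155563181 to 155592810), was not called in any of the 5 comparisons. It was at 17.9, 18.3 and 19.1 CPM in WT and 19.8, 18.0 and 18.3 CPM in KKO at 24 h. By 48 h it stood at 17.1, 17.1 and 17.7 CPM in WT and 19.1, 19.6 and 18.5 CPM in KKO. The groups overlapped at 24 h and did not at 48 h, where every KKO library was higher by a narrow margin. The log2 fold change was 0.02 at 24 h (95% interval -0.13 to 0.17, adjusted p = 0.987) and 0.14 at 48 h (interval -0.01 to 0.29, adjusted p = 0.168), and -0.09 and 0.03 with time in WT and KKO (adjusted p = 0.284 and 0.759).

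Slc7a11, the light chain of the cystine-glutamate exchanger (chromosome 3, 50364936 to 50499087), did not pass the test for genotype at either time. It was at 9.11, 9.92 and 10.1 CPM in WT and 11.7, 11.5 and 13.5 CPM in KKO at 24 h. At 48 h it was at 11.6, 9.64 and 8.78 CPM in WT and 9.39, 9.45 and 9.64 CPM in KKO. The KKO libraries were higher without overlap at 24 h and lay within the WT range at 48 h. The log2 fold change for genotype was 0.33 ± 0.11 SE at 24 h (95% interval 0.11 to 0.56, adjusted p = 0.156) and -0.07 at 48 h (interval -0.31 to 0.17, adjusted p = 0.677). Slc7a11, the gene with the paired amino acid response element cores, fell with time by 0.37 on the log2 scale in KKO (adjusted p = 0.00842) and was not called in WT (0.04, adjusted p = 0.770). Its expected counts were not whole in 12 of 12 libraries, so it shares reads with other gene models, while those of the other 8 members were whole in all libraries.

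Gsr, glutathione reductase, which turns oxidised glutathione back with NADPH (chromosome 8, 33653238 to 33698162), rose without Keap1 at both times. It was at 95.9, 97.8 and 102 CPM in WT and 160, 138 and 155 CPM in KKO at 24 h. Its 48 h levels were 68.8, 69.4 and 67.6 CPM in WT and 103, 101 and 103 CPM in KKO. The groups did not overlap at either time, and at 48 h the libraries varied little within each group. The KKO level was 1.54-fold that of WT at 24 h (log2 fold change 0.62 ± 0.06 SE, 95% interval 0.50 to 0.74, adjusted p = 2.07e-05) and 1.49-fold at 48 h (0.57 ± 0.06, interval 0.45 to 0.70, adjusted p = 2.36e-05). Gsr fell with time by 0.52 on the log2 scale in WT (adjusted p = 2.4e-06) and by 0.57 in KKO (adjusted p = 5.79e-07).

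Glrx, glutaredoxin 1, which removes glutathione from protein cysteines (chromosome 13, 75839885 to 75850151), was higher in KKO at 48 h by the test. It was at 11.1, 14.4 and 12.3 CPM in WT and 20.6, 16.6 and 14.8 CPM in KKO at 24 h. The 48 h values were 15.9, 20.5 and 19.1 CPM in WT and 26.0, 23.6 and 28.1 CPM in KKO. All KKO libraries exceeded all WT libraries at each time, by little at 24 h, where KKO replicate 3 and WT replicate 2 nearly met. The log2 fold change was 0.46 ± 0.13 SE at 24 h (95% interval 0.17 to 0.74, adjusted p = 0.107) and 0.48 ± 0.13 at 48 h (1.40-fold, interval 0.20 to 0.77, adjusted p = 0.0178). The call at 48 h was lost without WT replicate 1 (adjusted p = 0.0758), KKO replicate 1 (0.0579) or KKO replicate 3 (0.0809) of that time and without the 2 libraries that hold both Xist and Y-linked transcripts (0.0601), and a call at 24 h was gained in DESeq2 (adjusted p = 0.0379). Glrx, whose upstream stretch holds an AP-1 motif, rose with time by 0.55 on the log2 scale in WT (adjusted p = 0.00243) and by 0.58 in KKO (adjusted p = 0.00126).

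Gpx4, the selenoenzyme that reduces lipid hydroperoxides in membranes (chromosome 10, 80047166 to 80056439), rose with time in both genotypes and was higher in KKO at 48 h. It was at 99.8, 111 and 117 CPM in WT and 136, 115 and 138 CPM in KKO at 24 h. By 48 h it stood at 182, 190 and 206 CPM in WT and 279, 242 and 263 CPM in KKO. The genotypes overlapped at 24 h, through KKO replicate 2, and were apart at 48 h. The log2 fold change for genotype was 0.25 at 24 h (95% interval 0.07 to 0.43, adjusted p = 0.190) and 0.44 ± 0.08 SE at 48 h (1.36-fold, interval 0.26 to 0.62, adjusted p = 0.00224). The rise with time was 1.76-fold in WT (0.82, adjusted p = 1.12e-06) and 2.01-fold in KKO (1.01, adjusted p = 1.01e-07).

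Gpx1, the cytosolic selenoenzyme that reduces hydrogen peroxide (chromosome 9, 108339080 to 108340342), overlapped between genotypes at both times. It was at 203, 222 and 222 CPM in WT and 227, 208 and 217 CPM in KKO at 24 h. At 48 h it was at 191, 186 and 171 CPM in WT and 169, 191 and 155 CPM in KKO. The log2 fold change for genotype was 0.01 at 24 h (95% interval -0.15 to 0.17, adjusted p = 0.995) and -0.09 at 48 h (interval -0.25 to 0.07, adjusted p = 0.417); without KKO replicate 2 at 48 h, Gpx1 was called lower at that time (-0.18, adjusted p = 0.0313). With time Gpx1 fell by 0.24 on the log2 scale in WT (adjusted p = 0.0121) and by 0.34 in KKO (adjusted p = 0.000972). The WT call was lost without WT replicate 2 at 24 h (adjusted p = 0.0513), WT replicate 3 at 24 h (0.0515) or WT replicate 3 at 48 h (0.0720).

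The peroxidases moved in opposite directions with time, Gpx4 up and Gpx1 down. The ratio of Gpx4 to Gpx1 counts was 0.490, 0.50 and 0.527 in WT and 0.599, 0.554 and 0.636 in KKO at 24 h. The 48 h ratios were 0.950, 1.02 and 1.21 in WT and 1.65, 1.27 and 1.69 in KKO. The ratios of the 4 groups did not overlap, with means of 0.506 ± 0.0192, 0.596 ± 0.0410, 1.06 ± 0.133 and 1.54 ± 0.233 in that order. This ratio was also chosen with the values known, from a gene that rose with time and 1 that fell, so it is a description and no p is given. Of single tested genes, 68.4% in WT and 70.4% in KKO had no overlap between times. Between genotypes, 19.4% at 24 h and 33.2% at 48 h had none.

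Ggct, a cyclotransferase that releases oxoproline from gamma-glutamyl amino acids (chromosome 6, 54985095 to 54992960), fell with time in both genotypes. It was at 12.7, 13.9 and 17.1 CPM in WT and 14.1, 12.5 and 13.2 CPM in KKO at 24 h. Its 48 h levels were 7.02, 6.54 and 6.74 CPM in WT and 5.61, 7.41 and 5.77 CPM in KKO. Every library at 48 h was below every library at 24 h, and the genotypes overlapped at each time. Of all tested genes, 68.4% in WT and 70.4% in KKO had no overlap between the times. The fall was 2.15-fold in WT (log2 fold change -1.11, adjusted p = 3.75e-06), and the log2 fold change was -1.09 in KKO (adjusted p = 3.35e-06). Genotype was not called at 24 h (-0.13, 95% interval -0.39 to 0.13, adjusted p = 0.852) or at 48 h (-0.12, interval -0.41 to 0.18, adjusted p = 0.576). Ggct has 2 matches to the antioxidant response element core in its window.

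**Figure D2:**
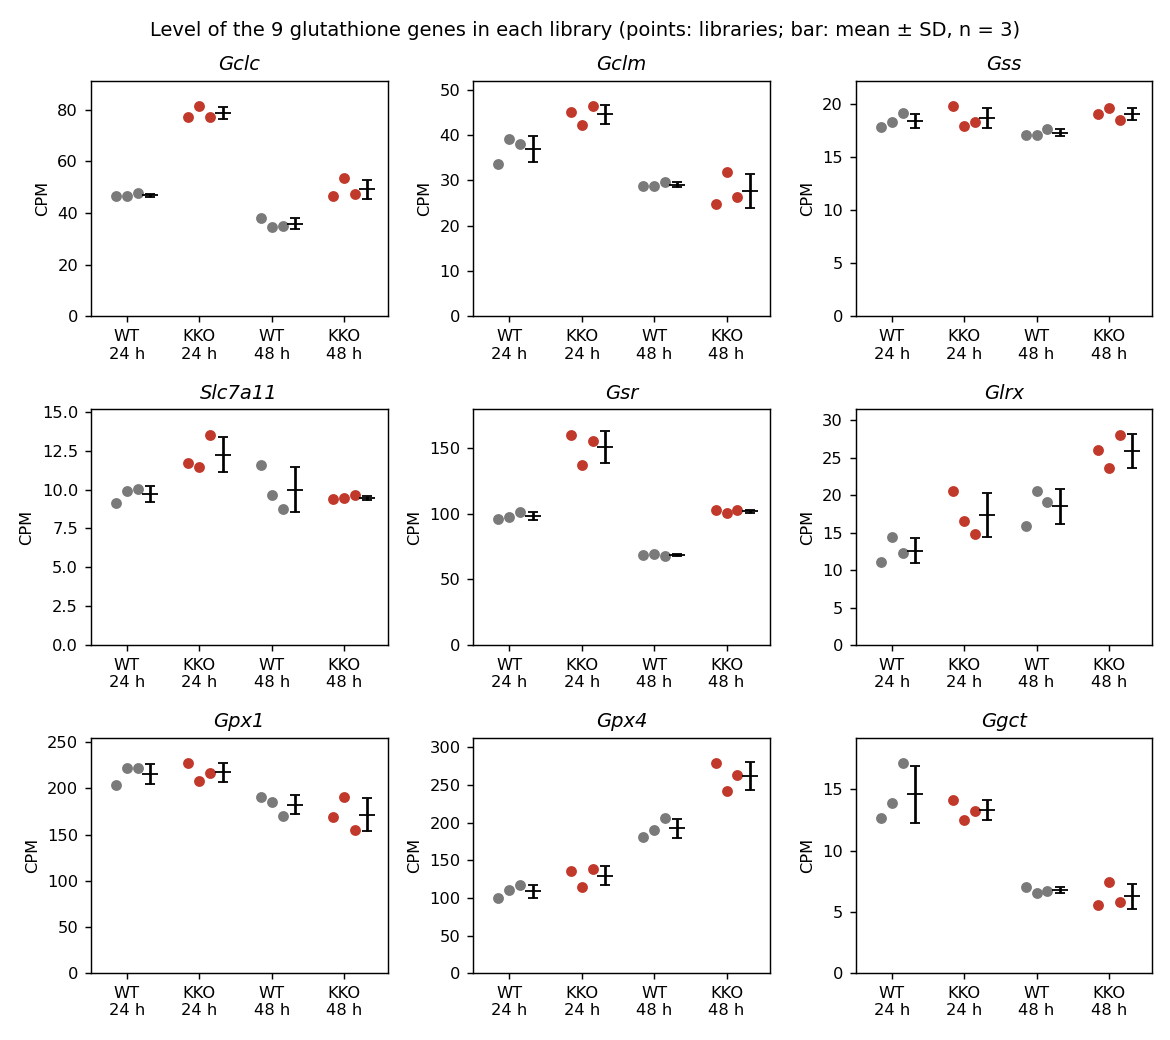
Level of each of the 9 genes in CPM, 1 panel per gene with its own axis starting at 0, for WT and KKO at 24 h and 48 h, with points for the 3 libraries and bars for the mean ± SD. Gclc and Gsr are higher in KKO at both times without overlap. Gpx4 reaches 279 CPM in a KKO library at 48 h, against at most 206 CPM in WT at 48 h and 117 CPM in WT at 24 h.

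At 24 h, 2 of the 9 genes were called between genotypes (Gclc and Gsr, both higher), where 2.33% of all tested genes were called and 1.89% were called higher. The KKO and WT libraries did not overlap for 5 of 9 (Gclc, Gclm, Gsr, Slc7a11 and Glrx, all higher), against 19.4% of all tested genes. The median log2 fold change of the 9 was 0.27, against -0.004 over all tested genes. At 48 h, 4 of 9 were called, all higher (Gclc, Gsr, Gpx4 and Glrx), against 24.3% of tested genes called in either direction and 12.4% upward. The libraries did not overlap for 5 of 9 at 48 h (the same 4 and Gss), against 33.2% of tested genes, and the median log2 fold change was 0.14 against -0.004. With edgeR and all libraries, 6 of 9 at 24 h and 4 of 9 at 48 h had an unadjusted p under 0.05, all of them higher, against 11.2% and 38.3% of all tested genes (7.03% and 19.1% higher). In that fit 0 of the 9 were called lower in KKO at either time, whereas without KKO replicate 2 at 48 h Gclm and Gpx1 were called lower at 48 h. With all libraries, DESeq2 and limma-voom called 0 lower as well. Without the 2 libraries that hold both Xist and Y-linked transcripts, 2 of 9 were called at 24 h and 3 of 9 at 48 h, against 0.799% and 10.4% of the genes tested in that fit, with Gclc at 0.76 and 0.48 and Gsr at 0.57 and 0.57 on the log2 scale. The calls of Gclc and Gsr at both times, and of Gpx4 at 48 h, stood in all 21 alternatives run.

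**Figure D3:**
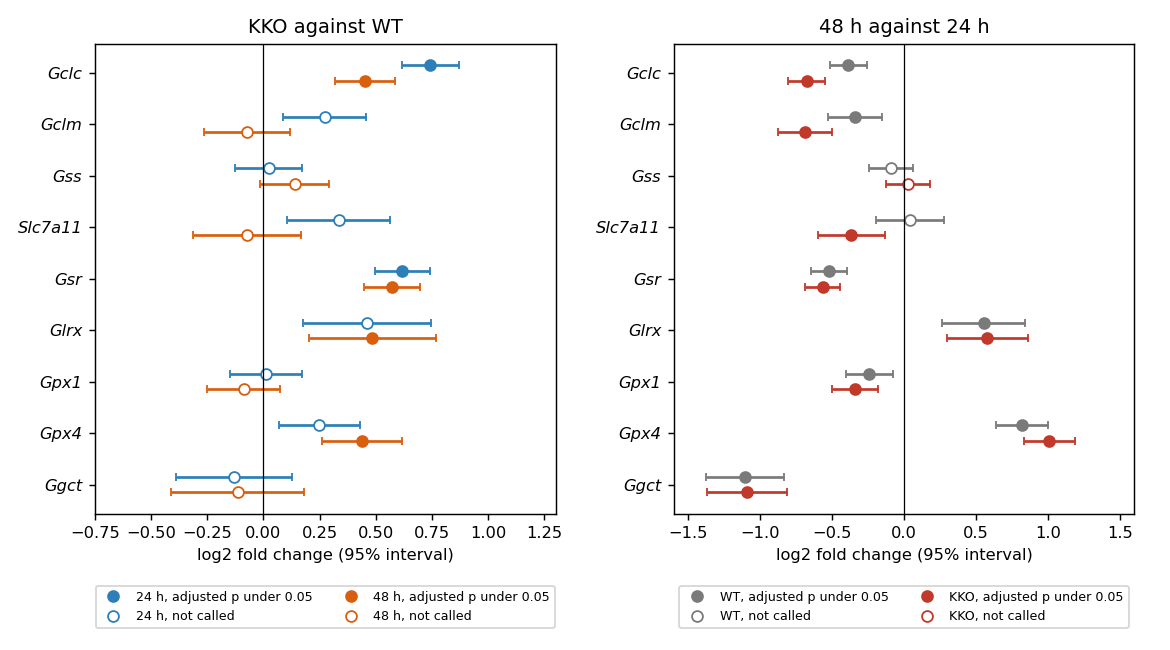
Log2 fold change with its 95% interval from edgeR for each of the 9 genes, KKO against WT at 24 h and 48 h (left) and 48 h against 24 h in WT and KKO (right), with filled points for an adjusted p under 0.05. Gclc and Gsr lie to the right of 0 at both times on the left, and Gpx4 and Glrx stand to the right of 0 for time while Gclc, Gclm, Gsr, Gpx1 and Ggct stand to the left.

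The difference of the genotype effects between times (48 h minus 24 h) was called for 0 of 9 genes in edgeR, against 4.18% of all tested genes (1.46% higher, 2.72% lower), and for 0 of 9 in DESeq2 and limma-voom. It had an unadjusted p under 0.05 for 3 of 9, against 22.6% of all tested genes, each with a lower effect at 48 h than at 24 h. These were Gclc at -0.29 (adjusted p = 0.0669), Gclm at -0.35 (adjusted p = 0.119) and Slc7a11 at -0.41 (adjusted p = 0.143). The effect on Gsr differed by -0.05 (adjusted p = 0.769) and that on Gpx4 by 0.19 (adjusted p = 0.348). Without KKO replicate 2 at 48 h, Gclc (-0.37, adjusted p = 0.00334) and Gclm (-0.48, adjusted p = 0.00262) were called, 2 of 9 where 23.8% of all genes tested in that fit were called.

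With time, 7 of 9 genes were called in WT (2 higher, 5 lower), against 60.8% of all tested genes (31% rose and 29.7% fell). In KKO, 8 of 9 passed (2 higher, 6 lower), against 67.8% of all tested genes, with 34.4% rising and 33.4% falling. The median log2 fold change was -0.24 in WT and -0.37 in KKO, against medians of -0.0006 and 0.002 over all tested genes. The same genes rose in both genotypes (Gpx4 and Glrx), and the 5 that fell in WT fell in KKO, where Slc7a11 was added.

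Levels of different genes were set side by side as CPM per kb of the longest coding transcript in GENCODE M21. In WT at 24 h the order was Gpx1 (201 CPM per kb), Gpx4 (110), Gsr (36.8), Gclc (13.7), Gss (9.39), Glrx (9.38), Gclm (6.60), Ggct (3.68) and Slc7a11 (1.05). Only Gss (9.10 to 9.75 over libraries) and Glrx (8.23 to 10.7) overlapped among neighbours in that order. In WT at 48 h Gpx4 (194, range 182 to 207) was above Gpx1 (170, range 159 to 178) and Glrx (13.8) above Gclc (10.5). In KKO at 48 h Gpx4 was at 262 CPM per kb (range 243 to 280) and Gpx1 at 160 (range 145 to 178). These values rest on 1 length per gene, whereas the deposited counts sum over isoforms.

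The genes with the most similar pattern were found by Pearson's r of log2 CPM over the 12 libraries, among genes that averaged 5 CPM or more. These are descriptions, since the 12 points share 4 group means and the library scaling. The nearest gene to Gclc was Txnrd1, cytosolic thioredoxin reductase (r = 0.992), then Gsr (0.965) and Pmepa1 (0.947). Gsr likewise had Txnrd1 (0.979) and Gclc (0.965) nearest, followed by Afp (0.960). Gclm was nearest to Pithd1 (0.974) and had an r of 0.768 with Gclc. Gpx4 was nearest to Gpi1, the glycolytic phosphoglucose isomerase (0.998), Gpx1 to Uck2, a uridine-cytidine kinase (0.994), and Ggct to Rqcd1 (0.992). Glrx was nearest to Fhl2 (0.968), Gss to Actr1b (0.944) and Slc7a11 to Eps15 (0.853), the lowest of the nearest values. Among the 9, Gpx4 and Glrx had an r of 0.882, Ggct and Gpx1 of 0.925, and Gpx1 and Gpx4 of -0.846. After group means were removed, these were 0.386, 0.728 and -0.0492. The r of Gclc was then -0.329 with Gsr and 0.527 with Gclm.

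Of 34 other genes of glutathione metabolism and transport, 27 were tested. At 24 h, 2 were called (7.41% of those tested, against 2.33% of all genes), both higher in KKO, where 1.89% of all genes were called higher. These were Esd, the S-formylglutathione hydrolase (68.4 ± 3.22 CPM in WT and 109 ± 9.41 in KKO, log2 fold change 0.68, adjusted p = 8.35e-05), and Abcc1, an exporter of glutathione conjugates (83.4 ± 3.27 and 102 ± 1.89 CPM, 0.30, adjusted p = 0.0108). The Abcc1 call at 24 h was lost without WT replicate 2 (adjusted p = 0.0728), WT replicate 3 (0.0620) or KKO replicate 3 (0.0710) of that time and without the 2 libraries that hold both Xist and Y-linked transcripts (0.0618). At 48 h, 7 were higher and 3 lower, and the 10 called make 37.0% of those tested, against 24.3% of all genes. The largest rise among the called genes was that of Ggact, the gamma-glutamylamine cyclotransferase, from 14.7 ± 1.25 CPM in WT to 26.0 ± 2.67 in KKO (0.82, adjusted p = 0.000139). Esd (0.47, adjusted p = 0.000472) and Abcc1 (0.43, adjusted p = 0.000168) were again higher, as was Cndp2, a dipeptidase that splits cysteinylglycine (0.43, adjusted p = 0.00566). Lap3, leucine aminopeptidase, fell by 0.41 (adjusted p = 0.00433). The median log2 fold change of the 27 was -0.006 at 24 h and 0.10 at 48 h.

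**Figure D4:**
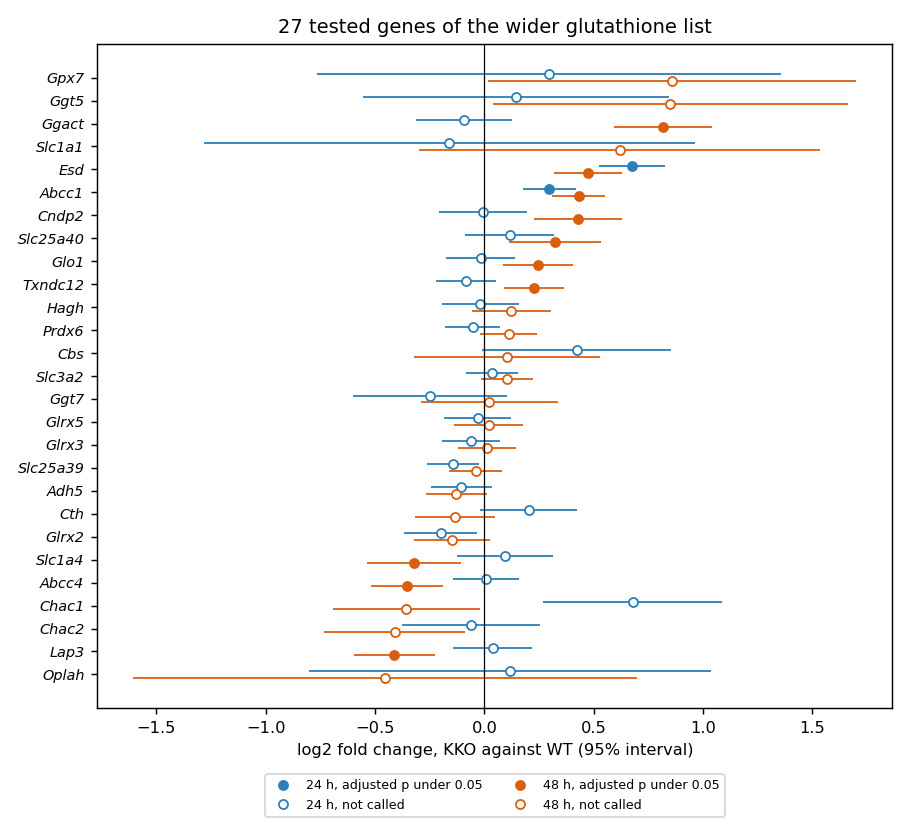
Log2 fold change with its 95% interval from edgeR for the 27 tested other glutathione genes, KKO against WT at 24 h and 48 h, with filled points for an adjusted p under 0.05. Esd and Abcc1 are filled at both times, and Ggact is filled at 48 h at 0.82.

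With time, 10 of the 27 rose and 6 fell in WT (59.3% called, against 60.8% of all tested genes), and 12 rose and 7 fell in KKO (70.4%, against 67.8%), shares near those of all genes. The rises include genes near the floor that could pass the low-count filter through their 48 h libraries, so these counts do not measure a rise of the list. In KKO, Slc1a1 was at 0.172 CPM at 24 h and 0.572 at 48 h, and Gpx7 at 0.224 and 0.782 CPM. Cth, cystathionine gamma-lyase, which makes cysteine from cystathionine, rose from 5.23 ± 0.461 to 39.6 ± 1.25 CPM in WT (log2 fold change 2.91, adjusted p = 1.92e-11) and from 6.02 ± 0.647 to 36.1 ± 2.91 CPM in KKO (2.58, adjusted p = 1.09e-10). Chac1, a cyclotransferase that degrades glutathione, rose from 2.38 ± 0.205 to 17.4 ± 0.986 CPM in WT (2.87, adjusted p = 9.38e-09) and from 3.80 ± 1.16 to 13.6 ± 1.64 CPM in KKO (1.84, adjusted p = 3.63e-07).

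Glutathione transferases conjugate glutathione to electrophiles, and 14 of 26 were tested. At 24 h, 1 was called (7.14% of those tested, against 2.33% of all genes). It was Gsto1 (29.0 ± 2.19 CPM in WT and 36.3 ± 2.11 in KKO, log2 fold change 0.33, adjusted p = 0.0295). The call was lost without any 1 of WT replicates 1 or 2 or KKO replicates 1 or 3 (adjusted p = 0.0895 to 0.130) and without the 2 libraries named above (0.194). At 48 h, 3 were higher and 0 lower (21.4% of those tested, against 24.3% of all genes; 5 of 14 had an unadjusted p under 0.05, against 38.3% of all genes). The count of 3 was 0 without WT replicate 1, WT replicate 2 or KKO replicate 1 of that time, 1 without KKO replicate 3, and 0 with only the 6 libraries compared, without the 2 mixed libraries, or at an adjusted p under 0.01. Calls over all tested genes fell as well. Their shares without each of those libraries were 12.7%, 12.5%, 10.4% and 12.3%, in that order. The shares in the remaining settings were 12.1%, 10.4% and 10.3%. Gstm1 was the largest, from 4.83 ± 2.02 to 10.2 ± 3.02 CPM (1.08, adjusted p = 0.0124), with an adjusted p of 0.0543 to 0.0654 in the 5 fits that lost its call. With time, 10 of the 14 rose and 4 fell in WT (100%, against 60.8% of all tested genes), and 10 rose and 2 fell in KKO (85.7%, against 67.8%). These shares include genes near the floor that could pass the low-count filter through their 48 h libraries, so they do not measure a rise of the family. With only the 24 h libraries, 12 transferases passed the filter, against 14 with only those of 48 h. Gstm5 was at 0.106 CPM in WT and 0.212 in KKO at 24 h, and at 0.610 and 0.761 CPM at 48 h. Gstt1, also near the floor at 24 h, rose from 0.348 ± 0.219 to 1.70 ± 0.431 CPM in WT (2.27, adjusted p = 0.000122) and from 0.435 ± 0.0968 to 2.94 ± 0.347 CPM in KKO (2.74, adjusted p = 9.56e-06).

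Gpx1 and Gpx4 are selenoproteins, and all 8 listed genes of selenoprotein synthesis and selenium uptake were tested. Lrp8, a receptor for selenoprotein P, was the only member of that list called for genotype, at 24 h and at 48 h. That is 12.5% of the list, against 2.33% of all tested genes at 24 h and 24.3% at 48 h. Lrp8 rose from 38.5 ± 3.50 CPM in WT to 54.7 ± 5.89 in KKO at 24 h (log2 fold change 0.50, adjusted p = 0.00348) and from 40.2 ± 2.45 to 52.3 ± 0.840 CPM at 48 h (0.38, adjusted p = 0.00526). With time, 1 rose and 3 fell in each genotype (50% of the list, against 60.8% of all tested genes in WT and 67.8% in KKO). Secisbp2, which binds the selenocysteine insertion element, fell from 62.8 ± 1.45 to 39.1 ± 4.13 CPM in WT (-0.69, adjusted p = 8.27e-07) and from 64.6 ± 3.47 to 37.0 ± 1.02 CPM in KKO (-0.80, adjusted p = 1.31e-07).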

How the data were processed

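The authors deposited RSEM expected counts per gene, unnormalised, for mouse build mm10 (reads checked with FastQC), per the submitters' processing notes. The design text of the series names a human reference, but the symbols are mouse symbols. Versions, aligner and annotation are not given in the sources used here. Another 6 columns of the file match no sample label and were not used, and 1 row without a gene name (at most 2 counts in a library) was left out. Expected counts were rounded. edgeR 4.0.16 (R 4.3.3) was run with TMM factors, filterByExpr on the 4 groups, robust quasi-likelihood dispersions and all 12 libraries in 1 fit (8 residual degrees of freedom). Tests were 2-sided with Benjamini-Hochberg adjustment over 13196 genes, and the SE was derived from the F statistic. The script was tested on simulated data. Depth was 17.8 to 32.6 M expected counts per library, and no pair of replicates agreed within counting noise.

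The 9 genes and all lists were chosen with earlier results of these data known. From each list, up to 5 called genes with the largest change were eligible to be named in each comparison. Positions and promoter windows came from RefSeq (GRCm38), lengths from GENCODE M21. Other settings tried were upper-quartile or RLE scaling, the tools DESeq2 1.42.0 and limma-voom (limma 3.58.1), other low-count filters, fits on only the libraries compared, replicate blocks, a stricter threshold, and fits without each library or without the 2 libraries with both Xist and Y-linked transcripts. After group means were removed, WT libraries with the same number correlated across time at 0.126, 0.103 and 0.343, all over 0.1, so the numbers were taken to pair WT libraries across time; the labels do not say what they mark.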

Additional observations from a re-analysis of the deposited data

Results flagged for a closer look

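The genotype effect of Chac1, which degrades glutathione, differed between times by the interaction test of edgeR: the log2 effect at 48 h minus that at 24 h was -1.03 ± 0.25 SE (adjusted p = 0.0327). The effect was 0.68 at 24 h (adjusted p = 0.0958) and -0.36 at 48 h (adjusted p = 0.111), neither called. The call for the difference was lost with limma-voom (adjusted p = 0.0517), without the 2 libraries that hold both Xist and Y-linked transcripts (-0.77, adjusted p = 0.194), and without any 1 of 9 of the 12 libraries (adjusted p = 0.0674 to 0.0911); it stood without KKO replicate 2 at 24 h, WT replicate 3 at 48 h or KKO replicate 2 at 48 h.

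The genotype effect of Ggact, a gamma-glutamylamine cyclotransferase, also differed between times, by 0.91 ± 0.15 SE (edgeR adjusted p = 0.00507). Its levels were 17.1 ± 2.04 CPM in WT and 16.0 ± 0.926 in KKO at 24 h, and 14.7 ± 1.25 and 26.0 ± 2.67 at 48 h. The difference stayed called in all 20 alternatives run, with an adjusted p of 5.89e-06 to 0.0479.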

How the results depend on the processing

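Over all alternatives other than the stricter threshold, 918 values of the 9 genes kept their direction and side of the threshold, 7 gained a call, 7 lost one and 22 changed sign, none of them called with all libraries. At an adjusted p under 0.01, Glrx at 48 h (0.0178) and Gpx1 with time in WT (0.0121) were also lost. Those that changed sign on leaving out 1 library ranged, over all libraries left out, as follows. At 24 h Gss was at -0.0068 to 0.050 and Gpx1 at -0.0205 to 0.0342, with -0.0213 and -0.0228 without the 2 libraries with Xist and Y-linked transcripts. At 48 h Gclm was at -0.20 (without KKO replicate 2) to 0.00199 and Slc7a11 at -0.164 to 0.0388. For the interaction, Ggct was at -0.13 to 0.0927 and Glrx at -0.0908 to 0.146. With time, Slc7a11 was at -0.0708 to 0.132 in WT and Gss at -0.0067 to 0.0558 in KKO. Without a low-count filter Gss in KKO was at -0.0174 and Ggct for the interaction at -0.00035, which was at -0.0137 with limma-voom; Gpx1 for the interaction was at 0.00274 without the 2 libraries.

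Leaving out 1 library gave 2 to 3 called members at 24 h, 3 to 6 at 48 h (6 without KKO replicate 2 of that time, 2 of them lower in KKO, where 39.6% of all genes tested were called), 0 to 2 for the interaction (2 without KKO replicate 2 at 48 h, where 23.8% of all genes were called), 6 to 7 with time in WT and 8 in KKO. Over those fits, the share of all tested genes called ran from 0.983% to 3.73% at 24 h and from 10.4% to 39.6% at 48 h. It ran from 1.06% to 23.8% for the interaction, from 53.6% to 62.7% with time in WT and from 61.4% to 68.4% in KKO. Of the other glutathione genes, 2 were called at 24 h: 1 at an adjusted p under 0.01, 1 without the 2 libraries with Xist and Y-linked transcripts, and 1 to 3 leaving out 1 library (1 without WT replicate 2, WT replicate 3 or KKO replicate 3). Of all tested genes, 2.33% were called in the main fit, 0.97% at an adjusted p under 0.01 and 0.799% without the 2 libraries. Without WT replicate 2, WT replicate 3 or KKO replicate 3 of 24 h, the shares were 1.03%, 1.13% and 0.983%. At 48 h, 10 were called: 5 with only the libraries compared, 6 at an adjusted p under 0.01, 6 without the 2 libraries, and 6 to 14 leaving out 1 library (6 without KKO replicate 1 or 3 of that time). The share of all tested genes called also fell, from 24.3% in the main fit to 12.1% with only the libraries compared. It was 10.3% at an adjusted p under 0.01, 10.4% without the 2 libraries, and 10.4% and 12.3% without KKO replicate 1 or 3 of that time. For the interaction, 2 were called (7.41% of those tested, against 4.18% of all genes): 4 with upper-quartile scaling, 4 with 1 CPM in 6 libraries, 6 with DESeq2, 1 with limma-voom, 1 at an adjusted p under 0.01, 1 without the 2 libraries, and 1 to 9 leaving out 1 library (9 without KKO replicate 2 at 48 h, where 23.8% of all genes were called). The share of all tested genes was 4.63% with upper-quartile scaling, 6.04% with 1 CPM in 6 libraries, 8.49% with DESeq2 and 3.77% with limma-voom. It was 0.644% at an adjusted p under 0.01 and 0.403% without the 2 libraries. The cause of these changes was not tested. With the replicate number as a block, 2, 4, 0, 7 and 8 members were called in the 5 comparisons, the same counts as without it. Same-numbered WT and KKO libraries correlated at -0.317 to 0.224, and the labels do not pair them. With the block within the genotype, 7 and 8 members were called with time. In KKO this block has little basis: replicates 1 and 3 differed between times in their Xist and Y-linked transcripts. Same-numbered KKO libraries correlated across time at 0.0287 to 0.0852. In WT, of the named genes, Gpx7 lost its call under the block within the genotype (adjusted p = 0.0613 against 0.0312). Gpx7 was near the floor in WT, at 0.184 CPM at 24 h and 0.429 at 48 h. Its call was also lost with DESeq2 and without a low-count filter. The same held without WT replicate 1 or 2 at 24 h and without WT replicate 2 or 3 at 48 h.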
